A study of Mus musculus with 4 samples.

Results

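The genes described here encode the proteins of the cytosolic ribosome. They were taken from the table by symbol, as Rpl or Rps followed by a number with an optional suffix, together with Rpsa, Rplp0, Rplp1 and Rplp2. Pseudogene names and the Rps6 kinases were left out. The rule found 85 of 27178 genes. Of these, 76 carry the name of a standard ribosomal protein, 46 of the large and 30 of the small subunit. The other 9 carry a paralogue name (Rpl10l, Rpl22l1, Rpl32l, Rpl39l, Rpl3l, Rpl6l, Rpl7l1, Rps27l and Rps4l). The ribosomal protein genes Fau, Rack1, Rpl36al and Rps3a1, among others, have other name patterns and are given separately.

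Each ribosome holds 1 copy of nearly every ribosomal protein, built around ribosomal RNA, and the proteins of the stalk are present in more than 1 copy. Their mRNAs begin with a run of pyrimidines directly at the cap, which lets growth signals through mTOR turn their translation up or down as a group, so mRNA level and protein output need not move together. Defects of ribosome formation are known to affect neural crest derivatives in particular, and they can stabilise p53 when free ribosomal proteins bind Mdm2.

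The RNA came from the gut of mouse embryos at 11.5 days post coitum, from cells that derive from the neural crest. In this mouse, Wnt1-tdT, a red fluorescent reporter marks cells of the Wnt1 lineage, and tdT-expressing cells were sorted by flow cytometry in both groups. The wavefront group is 2 libraries from the leading edge of the cells that colonise the gut, and the trailing group is 2 libraries from cells lying 1 to 1.5 mm behind that edge. No treatment or mutation separates the groups, and the reporter is carried by both. Whether the replicates are separate embryos, litters or sorts is not stated, so the p-values take in only the variation among these 4 libraries, and that variation may be technical. CPM here is the usual counts-per-million scale, with the 2 ribosomal RNA rows (Rn45s and Rn18s) left out of the total.

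Trailing replicates 1 and 2 and wavefront replicates 1 and 2 held 404927, 348786, 463954 and 130643 reads outside ribosomal RNA. Ribosomal RNA took 13.4 to 22.0% of the reads of the first 3 of these libraries and 49.5% of those of wavefront replicate 2, which was also the shallowest. Reads of enteric crest markers were present for 14 of 14 listed genes, with a summed level of 4784 and 3790.3 CPM in the trailing and 5479 and 2847 CPM in the wavefront libraries. Of 10 tested in edgeR's count test, 2 fell at the wavefront, Tlx2 among them, and 8 did not pass. Their fold changes were above 0 in 4 and below 0 in 6, and limma called 0 of the list. Of 15 neuron markers tested by counts, 12 fell at the wavefront (1.34% of all tested genes passed in either direction, and limma called 4 of the 15), and their summed level was 5233 and 5852 CPM against 1604 and 1324 CPM. Of 3 gut mesenchyme markers tested by counts, Des and Col3a1 rose (limma called 0 of the list), the summed level of the list was 217 and 229 CPM against 496 and 1317 CPM, and Twist1 and Dpt were at 0 reads. Erythroid markers summed to 0 to 4.94 CPM in 3 libraries and to 849.6 CPM in wavefront replicate 2, where Hbb-y and Hba-x had 67 and 33 reads. Hbb-bs and Hba-a2 were at 0 in every library. The summed level was at most 76.5 CPM for epithelium, 86.2 CPM for endothelium and 15.3 CPM for leukocytes, with 5 of 8 leukocyte markers at 0. The part these other cells have in the ribosomal protein values was not tested. In bulk samples, fewer cells of a type and less RNA per cell cannot be told apart.

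The DNA around the start sites shows what these genes share in sequence that the choice of members did not use. RefSeq windows on GRCm38.p6, from 250 bases before to 50 bases after an annotated start, were found for 63 of the 85 genes. The 50 bases printed here run from 30 before to 20 after the start, 5′ to 3′ on the gene's strand. Capitals mark the longest run of C or T that lies between 10 bases before and 20 bases after the start. Rps6 is shown as the classic target of growth signalling, and the others because their fold changes between wavefront and trailing, given further on, were the highest (Rpl38, Rps27, Rpl24, Rps2 and Rpsa) or among the lowest (Rpl34, Rpl28 and Rps15) of the members.
Rps6: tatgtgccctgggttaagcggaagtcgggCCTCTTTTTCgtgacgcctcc
Rpl38: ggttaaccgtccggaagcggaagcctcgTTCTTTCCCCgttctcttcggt
Rps27: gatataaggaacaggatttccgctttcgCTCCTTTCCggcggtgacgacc
Rpl24: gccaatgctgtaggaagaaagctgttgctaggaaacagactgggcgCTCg
Rps2: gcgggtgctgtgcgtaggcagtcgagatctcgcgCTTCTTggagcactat
Rpsa: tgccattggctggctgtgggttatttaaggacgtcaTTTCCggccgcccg
Rpl34: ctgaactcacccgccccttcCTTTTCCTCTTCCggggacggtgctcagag
Rpl28: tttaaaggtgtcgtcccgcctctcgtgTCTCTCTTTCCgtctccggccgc
Rps15: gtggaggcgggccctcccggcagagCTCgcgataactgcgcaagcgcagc
These windows lie at chr4:86857348-86857397 on the minus strand (Rps6), chr11:114668550-114668599 on the plus strand (Rpl38), chr3:90213629-90213678 on the minus strand (Rps27) and chr16:55966245-55966294 on the plus strand (Rpl24). Rps2 is at chr17:24720033-24720082 (plus), Rpsa at chr9:120127736-120127785 (plus), Rpl34 at chr3:130730318-130730367 (minus), Rpl28 at chr7:4792935-4792984 (plus) and Rps15 at chr10:80292401-80292450 (plus).

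The run of C or T was 10 bases long in Rps6 and Rpl38, 9 in Rps27, 13 in Rpl34 and 11 in Rpl28, and 3 to 6 in Rpl24, Rps15, Rpsa and Rps2. In Rpl34 the run goes on to the left of the stretch searched, and only the part inside it is counted. Rpl34 has another annotated start, with its 50-base window at chr3:130730379-130730428 and a run of 6. Genes with several windows were counted by any of them. Long and short runs thus occur among the members with the highest fold changes and among those with the lowest. A run of at least 6 was found in 39 of the 63 genes (61.9%) and in 32.1% of 27025 genes with a window of the same length, and a run of at least 8 in 39.7% and 13.0%. CGGAAG, the core of the sites bound by ETS factors, was found on either strand of the whole window in 65.1% of the members and 18.8% of all genes. It stands at the left of the runs of Rps6 and Rpl38. AAGATGG, part of the YY1 site, was found in 15.9% and 7.28%, and TATAA in 30.2% and 28.0%. The first 3 letters of AAGATGG are the last 3 of CGGAAG, and the 2 motifs overlapped in this way in 1 member. A match is a description of these letters and not evidence of binding, and an annotated start can lie some bases away from the cap.

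The members took a similar share of the RNA in all 4 libraries. They held 4.44% and 4.91% of the reads outside ribosomal RNA in trailing replicates 1 and 2 and 4.45% and 4.33% in wavefront replicates 1 and 2. The exact binomial 95% intervals, which cover counting error only, were 4.38 to 4.51%, 4.84 to 4.99%, 4.39 to 4.51% and 4.22 to 4.44%. Trailing replicate 2 stood above the other 3 libraries, and its interval did not overlap theirs. The mean share was 4.68% ± 0.333 (SD, n = 2) for trailing and 4.39% ± 0.0869 (SD, n = 2) for wavefront, a difference of -0.288 percentage points (exact permutation test, two-sided, p = 0.667). With 2 libraries against 2, the smallest p such a test can give is 0.333. With genes of the mitochondrial genome left out of the total as well, the shares were 4.61 and 5.12% for trailing. They were 4.58 and 4.41% for wavefront, so the groups did not overlap (exact permutation test, two-sided, p = 0.333). The groups overlapped under the other choices of genes or total that were tried on all 4 libraries.

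**Figure D1:**
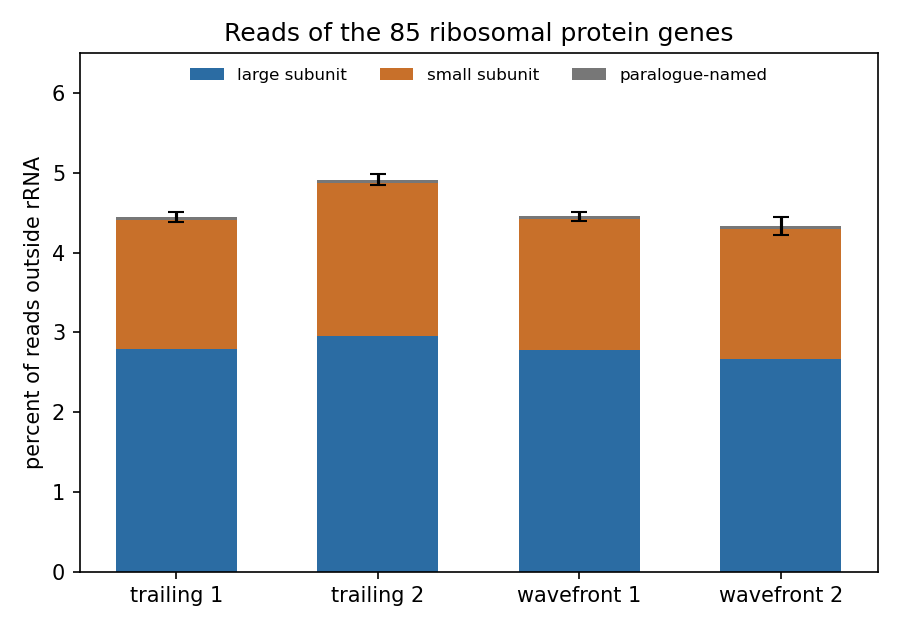
Percent of reads outside ribosomal RNA that fall in the 85 ribosomal protein genes (vertical axis) in each of the 4 libraries, stacked by large subunit, small subunit and paralogue-named genes. Black bars are exact binomial 95% intervals of the total. Trailing replicate 2 reaches 4.91%, and the other 3 libraries lie between 4.33 and 4.45%.

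The large and small subunits were represented in similar proportion. Reads of large subunit genes outnumbered those of small subunit genes 1.73 and 1.55 times in the trailing and 1.71 and 1.65 times in the wavefront libraries, so the wavefront values lay inside the trailing range. The mean ratio was 1.64 ± 0.129 for trailing and 1.68 ± 0.0407 for wavefront (SD, n = 2 each, exact permutation p = 1). Without the 5 genes with the most reads, the ratio was 1.39 and 1.39 for trailing and 1.28 and 1.34 for wavefront, with the difference on the other side of 0. The difference in ratio, wavefront minus trailing, was also below 0 without trailing replicate 2, at -0.055.

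Reads were spread unevenly over the members. The 5 members with most reads, Rpl4 and Rplp0 among them, together held 36.2% and 30.6% of the members' reads in the trailing and 37.0% and 34.4% in the wavefront libraries. Mean levels of the 80 tested genes ran from 29.8 to 5458 CPM, a 183-fold range. Per kb of exon, which makes genes of different length comparable, the 79 genes with a length and at least 10 reads ran from 119.6 to 3549 CPM per kb, a 29.7-fold range with a median of 448. The order of genes was nearly the same everywhere. Pearson's r of log2(CPM + 1) across the 80 members, a description over genes that share libraries and length, was 0.967 to 0.984 between any 2 libraries, and 0.761 to 0.919 across all tested genes. All tested genes include many with fewer reads than the members.

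The highest levels per kb belonged to Rpl4 (3549 CPM per kb), a large subunit protein lining the exit tunnel, Rplp0 (2653), the base of the stalk, and Rpl41 (2608), the smallest ribosomal protein. Rpl8 (2505) and Rplp1 (2031) were also among the highest. Rpl4 was at 5986 and 4693 CPM in the trailing and 6177 and 4975 CPM in the wavefront libraries, so that each group held 1 high and 1 low library. Rpl8, near the catalytic centre, was at 1946 and 2199 CPM against 2306 and 2074 CPM, and the groups overlapped. The lowest levels per kb were those of Rpl7l1 (119.6), Rps20 (132), Rpl35 (135), Rpl24 (137), Rpl37 (140.0) and Rpl36a (154). The exon length used for Rps20, 3706 bases, includes a long annotated 3′ end, which lowers its level per kb.

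Many of these mRNAs have near-copies elsewhere in the genome, and this bears on how many reads a gene can be given. In GENCODE M21 a median of 56.5% of the 50-base stretches of a member's transcript also occurred in a transcript of another gene, and 79 of 82 members with a coding transcript shared at least 1 with an annotated pseudogene (median 8 pseudogenes, at most 120). The sources used here do not give how the counting treated reads with several matches, so the levels of these genes are uncertain. Among the members with under 10% shared, Rpl8 and Rps3 had 2505 and 1296 CPM per kb, and Rps20 had 132. The 19 members with over 80% shared ran from 135 to 890.4 CPM per kb, with a median of 448, which is also the median of all 79. Across the 79 genes the rank correlation of shared sequence with level was -0.13 per kb of exon and -0.43 per kb of coding sequence, given as a description. The part that shared sequence has in the levels was not tested.

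**Figure D2:**
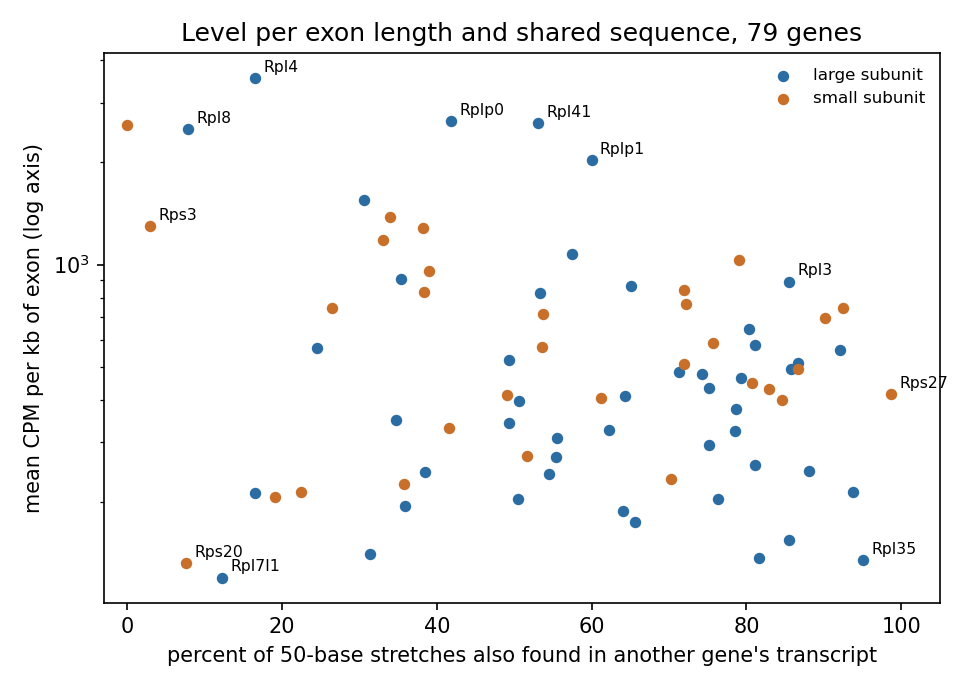
Mean CPM per kb of exon (vertical, log axis) against the percent of a transcript's 50-base stretches that also occur in another gene's transcript (horizontal) for 79 members, 1 point a gene, paralogues coloured by the subunit in their name. Rpl8 and Rps3 stand high at under 10% shared, and the 19 genes over 80% shared lie between 135 and 890.4 CPM per kb.

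The main comparison asked which ribosomal protein mRNAs differ between cells at the wavefront and cells behind it, and none passed. The count test was the quasi-likelihood test of edgeR, run on whole reads recovered from the deposited values. In it, 0 of 80 members passed at a Benjamini-Hochberg adjusted p under 0.05 over 5971 genes, where 1.34% of all tested genes passed. The smallest adjusted p of a member was 0.492, and 1 member, Rpl38, had an unadjusted p under 0.05, as did 9.31% of all genes. In limma on log2(CPM + 1), 0 of 82 members passed, against 0.0536% of 13050 genes, with the same 1 member, Rpl38, at an unadjusted p under 0.05 (6.38% of all genes). DESeq2 on the same reads gave 0 members, also at an unadjusted p under 0.05, while 15 of 14587 genes passed once adjusted. In the authors' deposited table, 0 of 82 members had a p-value under the threshold once adjusted here (0.0891% of all genes).

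The fold changes of the members were small and closely grouped. In the count test the log2 fold change, wavefront over trailing, had a median of -0.10 over the members and 0.00 over all genes, and the middle 50% of members lay between -0.27 and 0.03 against -0.31 and 0.31 for all genes. All genes include many with fewer reads. The members' values ran from -0.57 to 0.72, and 78 of 80 were within 0.5 of 0. Of the members, 24 were above and 56 below 0, and 49.8% of all tested genes were below 0. The median was -0.24 without trailing replicate 1 and -0.02 without trailing replicate 2, with 17 and 34 members above 0. In limma 21 members were above and 61 below 0, and 56.9% of all tested genes were below 0. The medians there were -0.15 for members and -0.12 for all genes. On CPM as deposited, with ribosomal RNA kept in the total, they were -0.39 and -0.35, with 4 members above 0. The median SE of a member was 0.33. On simulated data with these library sizes, edgeR found 18% of 100 genes changed 2-fold and 100% of 100 changed 8-fold. The changed genes were drawn from all genes above a limit of reads, not from the members, with the same spread for every gene. A 2-fold difference of a single gene was thus mostly missed in the simulation. How often it would be missed for a member was not simulated.

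**Figure D3:**
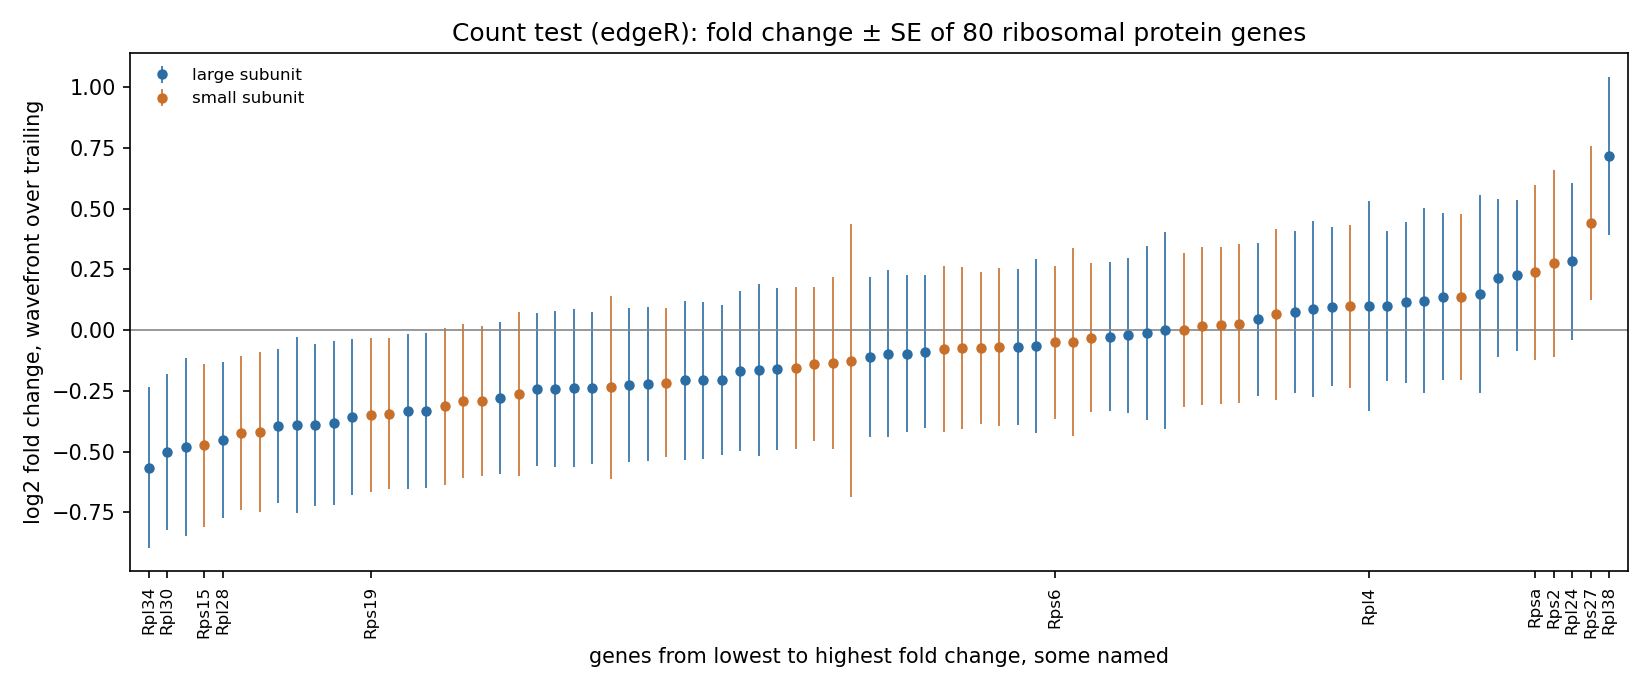
Log2 fold change of wavefront over trailing (vertical) for the 80 members tested by counts, ordered from lowest to highest, with bars of 1 SE, coloured by subunit. Rpl38 (0.72) stands highest and Rpl34 (-0.57) lowest, and genes of both subunits are spread over the whole order.

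Both subunits had genes on either side of 0. For the 46 large subunit genes the median log2 fold change was -0.16, with 13 above and 33 below 0, and for the 30 small subunit genes it was -0.08, with 9 above and 21 below. The 33 genes whose proteins have counterparts in bacteria had a median of -0.10 (12 above 0), and the 43 found only in archaea and eukaryotes or in eukaryotes alone had -0.14 (10 above 0). No gene of any of these groups passed in the count test, and a difference between the groups was not tested.

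Rpl38 had the highest fold change. It lies on chromosome 11 (114668524 to 114672331, plus strand, GRCm38, GENCODE M21) and encodes a small protein of the large subunit whose loss in mice alters the axial skeleton and the translation of some Hox mRNAs. Its level was 79.0 and 63.1 CPM in the trailing and 109.9 and 122 CPM in the wavefront libraries, from 32, 22, 51 and 16 reads. Both wavefront libraries were above both trailing ones. The log2 fold change was 0.72 ± 0.33 (SE, edgeR unadjusted p = 0.0375, adjusted p = 0.492), and limma gave 0.71 with an adjusted p of 0.705.

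The next in order were Rps27, Rpl24, Rps2 and Rpsa. Rps27, a zinc-finger protein of the small subunit, was at 98.8 and 146 CPM against 151 and 176 CPM, a log2 fold change of 0.44 ± 0.32 (SE, edgeR adjusted p = 0.738). Rpl24, mutated in the Belly spot and tail mouse, was at 74.1 and 94.6 CPM against 94.8 and 107 CPM (0.28 ± 0.32). In both genes the groups did not overlap, although for Rpl24 the nearest libraries of the groups lay almost level. Rpsa, a small subunit protein also called the laminin receptor, was at 1141 and 986 CPM against 1246 and 1202 CPM (0.24 ± 0.36), again without overlap. Rps2, at the mRNA entrance, was at 948 and 963 CPM against 1485 and 719.5 CPM (0.27 ± 0.38), with 1 wavefront library above and 1 below both trailing ones. Its direction rests on wavefront replicate 1, and without that library the value was -0.43, against 0.74 without wavefront replicate 2. The other 3 values also rest in part on single libraries. Without trailing replicate 1 and without trailing replicate 2 they were 0.21 and 0.71 for Rps27, 0.15 and 0.43 for Rpl24, and 0.38 and 0.11 for Rpsa, which was at 0.15 without wavefront replicate 1.

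Among the lowest fold changes were those of Rpl34, Rpl30, Rps15 and Rpl28. Rpl34 (chromosome 3, 130726831 to 130730398, minus strand) was at 168 and 287 CPM in the trailing and 131 and 176 CPM in the wavefront libraries, a log2 fold change of -0.57 ± 0.33 (SE, edgeR adjusted p = 0.649). The groups overlapped, with trailing replicate 2 far above the other 3 libraries. Rpl30, which binds RNA and can repress its own splicing in yeast, was at 123 and 149 CPM against 86.2 and 107 CPM (-0.50 ± 0.32). Both wavefront libraries were below both trailing ones. Rps15, near the head of the small subunit, was at 454 and 679 CPM against 409.5 and 375 CPM (-0.47 ± 0.33), and Rpl28 at 143 and 226 CPM against 129 and 130.1 CPM (-0.45 ± 0.32), with the same order. Without trailing replicate 2 the values were -0.17 for Rpl34, -0.20 for Rps15 and -0.13 for Rpl28, so much of these 3 values rests on that library. Without trailing replicate 1 they were -0.87, -0.71 and -0.73, and Rpl34 was at -0.38 without wavefront replicate 1.

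Groups that do not overlap were counted for all tested members. Both wavefront libraries were above both trailing ones in 4 of 80 members (Rpl38, Rps27, Rpl24 and Rpsa), against 16.3% of all tested genes, and below in 26, against 22.3% of all tested genes. These counts depend on the libraries. Without trailing replicate 2, the wavefront libraries were above the remaining trailing one in 24 members and below it in 27, against 29.8% and 31.5% of all genes, and without trailing replicate 1 in 6 and 58, against 29.0% and 38.0%.

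Most members differed in the same direction between the trailing replicates. Of the 80 members, 72 were higher in trailing replicate 2 than in trailing replicate 1 (against 55.3% of all tested genes), and the median log2 ratio was 0.26 against 0.08. The highest of the 4 libraries was trailing replicate 2 for 56 members, while it was the highest for 29.7% of all tested genes. Small and large subunit genes shared this, with 27 of 30 and 41 of 46 higher in replicate 2. The wavefront replicates showed less of it, with 50 members (62.5%) higher in replicate 2, against 53.2% of all tested genes. The members' median log2 ratio was 0.08, close to the 0.06 of all genes. Chi-square per degree of freedom over the members, in units of counting error, was 4.53 for the trailing and 2.31 for the wavefront pair. All tested genes gave 2.36 and 6.35. Each library's total over the genes counted is taken as given, so a shift shared by all members does not enter this value. It also grows with the number of reads, so the pairs, or members and all genes, are not directly comparable.

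**Figure D4:**
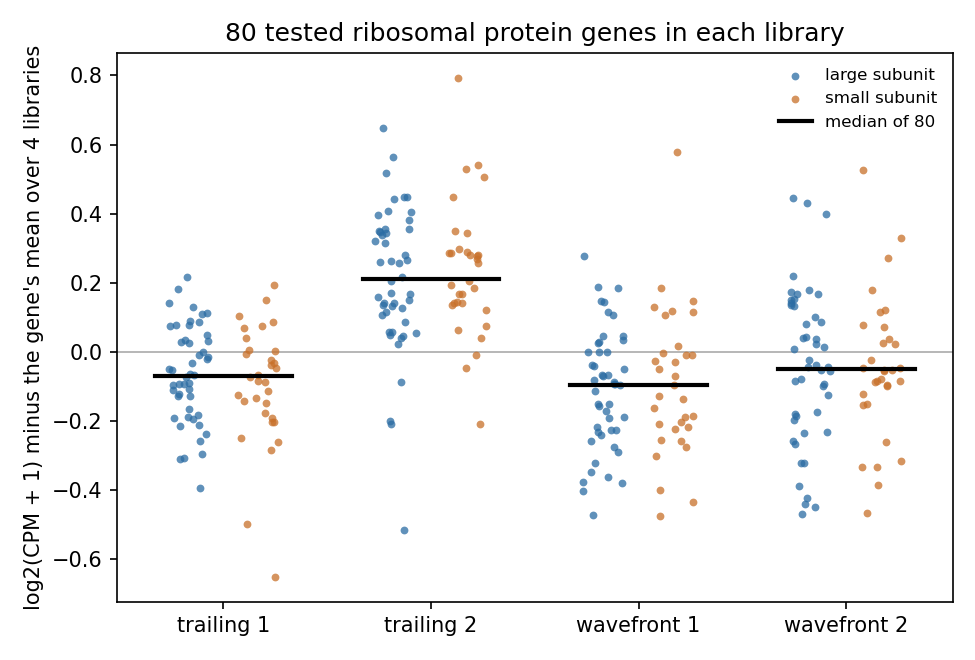
Log2(CPM + 1) of each of the 80 tested members minus that gene's mean over the 4 libraries (vertical), 1 point a gene, by library (horizontal) and subunit. Black lines are medians. Trailing replicate 2 has the highest value for 56 of the 80 genes, and the other 3 libraries overlap widely.

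The 8 members that were not higher in trailing replicate 2 were Rpl3, Rpl38, Rpl4, Rpl5, Rplp0, Rps19, Rps6 and Rpsa, named after their values were seen. Of these, 6 have over 700 coding bases. Of 14 genes with over 700 coding bases, 8 were higher in trailing replicate 2 (median log2 ratio 0.04), against 37 of 38 with 400 to 700 bases (0.33) and 26 of 27 with under 400 bases (0.33). The rank correlation of coding length with that ratio was -0.36 over 79 genes, and -0.21 for the wavefront pair, both as descriptions over genes that share the same libraries. The long class held 47.4% of the members' reads in trailing replicate 1 and 40.5% in trailing replicate 2. With the fold change between groups, the rank correlation of coding length was 0.07.

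**Figure D5:**
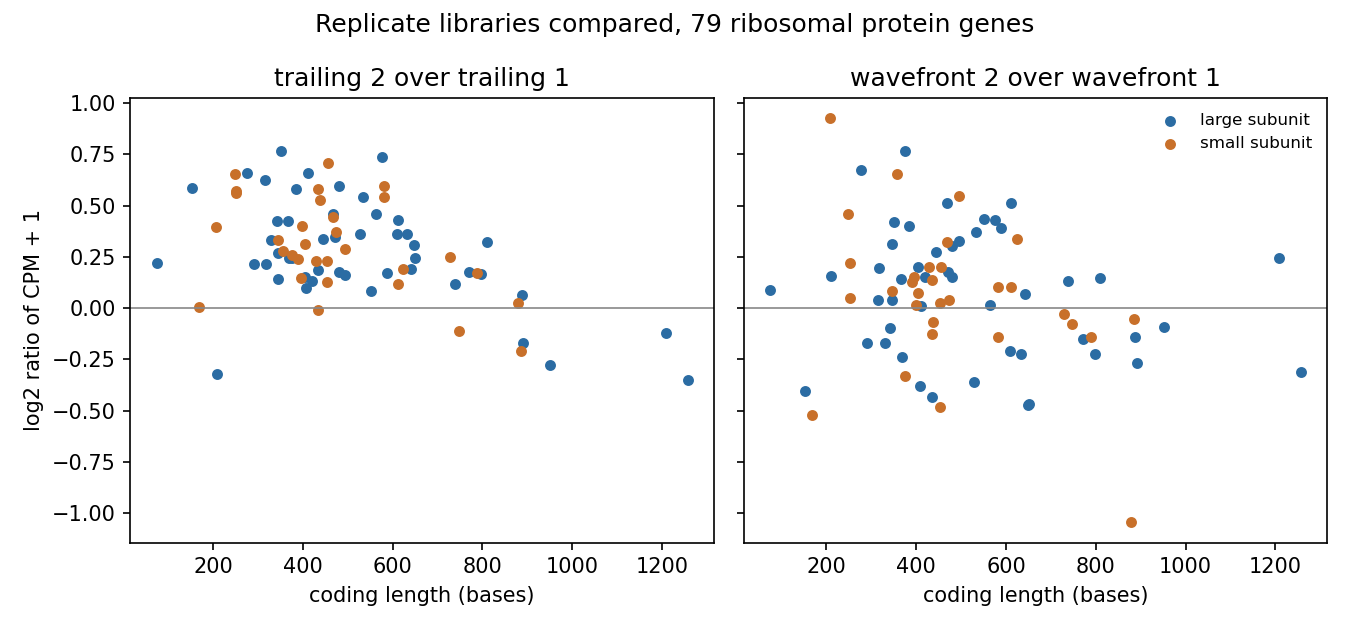
Log2 ratio of CPM + 1 between the 2 replicates of a group (vertical) against coding length in bases (horizontal) for 79 members, trailing replicates on the left and wavefront replicates on the right, 1 point a gene, coloured by subunit. On the left, genes under 700 bases lie almost all above 0, and the longest lie near or below it.

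The spread over the 4 libraries was under 2-fold for most members. The highest library was 1.44 times the lowest for the median member, and the ratio was under 2 for 77 of 80. For 5177 other tested genes in the members' range of mean CPM, the median ratio was 1.81, and 60.6% were under 2. These genes were not matched to the members in level within that range. Rpl23 varied least, at 351 and 384 CPM in the trailing and 351 and 390.4 CPM in the wavefront libraries (1.11-fold). Rps4l varied most (2.82-fold), from 7, 17, 14 and 3 reads. The median biological coefficient of variation fitted by edgeR was 0.197 for members and 0.165 for all tested genes, which include many genes with fewer reads.

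Members known to sense growth or ribosome faults gave the following values. Rps6, the substrate of the S6 kinases below mTOR, was at 375 and 347 CPM in the trailing and 347 and 329 CPM in the wavefront libraries, a log2 fold change of -0.05 ± 0.32 (SE, edgeR adjusted p = 0.981). Rpl5 and Rpl11, which bind Mdm2 together with the small RNA of the large subunit, were at 504 and 447 against 433 and 359.8 CPM, and at 249 and 364 against 207 and 268 CPM. The wavefront libraries were lower throughout for Rpl5 and overlapped the trailing ones for Rpl11. Rps7, which also binds Mdm2, was at 170.4 and 258 CPM against 164 and 176 CPM, with overlap.

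Rps19, the gene most often mutated in Diamond-Blackfan anaemia, was at 410.0 and 407 CPM in the trailing and 299.6 and 329 CPM in the wavefront libraries. The groups did not overlap, and the log2 fold change was -0.35 ± 0.32 (SE, edgeR adjusted p = 0.831). Rps20, which like Rps19 causes dark skin when mutated in mice, was at 482 and 585 CPM against 345 and 543 CPM. Rpl10, needed for the last steps of large subunit maturation, was at 454 and 519 CPM against 401 and 421 CPM. Rps4x, on the X chromosome, was at 682 and 768 CPM against 810.4 and 735 CPM. Of these 4 genes, Rps19 and Rpl10 had both wavefront libraries below both trailing ones.

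The stalk recruits the elongation factors and is made of Rplp0, Rplp1 and Rplp2. Rplp0 was at 3788 and 3128 CPM in the trailing and 3869 and 3628 CPM in the wavefront libraries, with log2 fold changes of 0.15 ± 0.41 (SE) for Rplp0, -0.07 ± 0.36 for Rplp1 and -0.09 ± 0.32 for Rplp2. Per kb of exon the mean levels were 2653, 2031 and 863 CPM. The reads of Rplp2 per kb were thus the fewest of the 3 genes. Of the 50-base stretches, 41.8% were shared with other genes for Rplp0, 60.0% for Rplp1 and 65.1% for Rplp2. The part of shared sequence in these levels was not tested.

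Paralogue-named members were low or at 0. Rpl3l, of striated muscle, and Rpl10l and Rpl39l, of the testis, had 0 reads in all 4 libraries, where 3 reads, the floor that a count of 0 allows, are worth 7.41, 8.60, 6.47 and 23.0 CPM in trailing replicates 1 and 2 and wavefront replicates 1 and 2. Their counterparts Rpl3, Rpl10 and Rpl39 had reads in every library, with Rpl3 at 1227 and 1129.6 CPM against 1123 and 1332 CPM and Rpl39 at 109 and 163 CPM against 142 and 107 CPM. Rpl32l and Rpl6l had at most 2 reads in a library and were not tested by counts. No protein-coding transcript was found in GENCODE M21 for these 2 and Rps4l, and reads given to them may come from other genes.

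Rpl22l1, Rps27l and Rpl7l1 had reads throughout. Rpl22l1 was at 76.6 and 103 CPM in the trailing and 97.0 and 107 CPM in the wavefront libraries, and Rpl22 at 222 and 333 against 226 and 299 CPM. The ratio of their reads was 0.344 and 0.310 against 0.429 and 0.359. For Rps27l, which p53 can induce, over Rps27 the ratio was 0.875 and 0.882 against 0.686 and 0.609, and for Rpl7l1 over Rpl7 it was 0.168 and 0.145 against 0.173 and 0.171. In each of the 3 pairs the groups did not overlap. All 3 gave an exact permutation p of 0.333 (two-sided), the smallest that 2 against 2 allows, and 0.333 after Benjamini-Hochberg adjustment over the 3 pairs. Rps27l itself was at 86.4 and 129 CPM against 103 and 107 CPM, so the lower ratio went with the higher level of Rps27. Of the 50-base stretches of Rps27, 98.6% occurred in another gene, which makes its reads uncertain.

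Other genes of the translation apparatus were set beside the members by edgeR's count test. Limma and DESeq2 called 0 genes of each of the lists that follow. The 5 ribosomal protein genes with other name patterns had a median log2 fold change of -0.33 (-0.39 to -0.11 with a library left out), and 0 of 5 passed (1 at an unadjusted p under 0.05). Among them Rack1, a scaffold on the small subunit, was at 2361 and 2288 CPM in the trailing and 2783 and 2503 CPM in the wavefront libraries, and Rps3a1 at 845 and 892 CPM against 862 and 819 CPM. Of 83 ribosome biogenesis genes 0 passed (7 at an unadjusted p under 0.05), 63 were above and 20 below 0, and the median was 0.20. Npm1 and Ncl, abundant nucleolar proteins, were at 3769 and 3194 against 4129.7 and 3299 CPM, and at 1956 and 2047 against 2403 and 1676 CPM. The side of 0 on which most genes of the list lay differed from that of the ribosomal proteins, and this difference was not tested. Without wavefront replicate 1 the median of the biogenesis list was 0.04, with 44 of 85 above 0. Utp18, a subunit of the processome that makes small subunit RNA, passed without trailing replicate 2, without wavefront replicate 2 and with all 4 libraries when no filter on low counts was used. Utp15 passed without wavefront replicate 2. Both are named after their values were seen. Utp18 had 4 and 12 reads in the trailing and 34 and 6 in the wavefront libraries, a log2 fold change of 1.64 ± 0.51 (SE, edgeR adjusted p = 0.137).

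Of 46 translation factor genes 0 passed (0 at an unadjusted p under 0.05), with 24 above 0 and a median of 0.02. Eef1a1, which brings aminoacyl-tRNA to the ribosome, was at 15647 and 12268 CPM in the trailing and 15426 and 14168 CPM in the wavefront libraries. Eef2, which moves the ribosome along the mRNA, was at 7354 and 3787 CPM against 8785 and 5817 CPM. Both were lower in replicate 2 of either group, the side opposite to that of most ribosomal protein genes in the trailing pair. Without wavefront replicate 1 the list's median was -0.21. Eif2b4, named because of that fit after its values were seen, had 23 and 16 reads in the trailing and 22 and 0 in the wavefront libraries. Its value in that fit thus rests on a single count of 0. With all 4 libraries its log2 fold change was -0.51 ± 0.52 (SE, edgeR adjusted p = 0.856). Of 15 growth control genes 0 passed (2 at an unadjusted p under 0.05, median 0.07, 8 above 0, median -0.01 without wavefront replicate 1 and 0.34 without trailing replicate 2), and Trp53, which encodes p53, was at 215 and 161 CPM against 291 and 260.3 CPM (log2 fold change 0.60 ± 0.31, SE, edgeR adjusted p = 0.571), without overlap. Of 5 snoRNA host genes 0 passed (0 at an unadjusted p under 0.05, median -0.24), and with a library left out the median ran from -0.55 (without trailing replicate 1) to 0.60 (without wavefront replicate 1), with 4 of 5 genes above 0 in the latter and, at a median of 0.50, without trailing replicate 2. With the replicate block it was -0.03. Gas5, a host whose transcript begins with a pyrimidine run, was at 257 and 353 CPM against 157 and 329 CPM.

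The genes whose profile lay closest to the mean of the members were chosen by the smallest root mean square difference of log2(CPM + 1) over the 4 libraries after centring, among 396 genes with at least the median reads of the members. They were Hsp90b1, Fth1, Naca, Atp5g3 and Ccnd2, at 0.0429, 0.0544, 0.0626, 0.0726 and 0.0862. The median was 0.165 for the members themselves and 0.324 for the 396 genes. The mean was made from these members, so that they lie closer to it is in part built in. Hsp90b1, a chaperone of the endoplasmic reticulum, was at 1598 and 1869 CPM in the trailing and 1448 and 1539 CPM in the wavefront libraries, and Naca, which meets nascent chains at the ribosome, at 425 and 528 against 427 and 398 CPM. The likeness is over 4 libraries only. The mean of the members stood 0.22 above its own average in trailing replicate 2, and at -0.08, -0.10 and -0.04 in trailing replicate 1 and wavefront replicates 1 and 2.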

How the data were processed

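RNA from 2 wavefront and 2 trailing libraries was made into Nextera XT libraries, which do not keep the strand, after sorting and Trizol isolation, per the labels' protocols. The submitters' processing notes name GRCm38 (mm10), the aligner STAR 2.5.2b, bcl2fastq 2.17, the read checker FastQC 0.11.9, DESeq2 and featureCounts. The sources used here do not give settings for strand and multiple matches. The authors deposited 1 table of 27606 rows with CPM per library, per the file headers. The deposited BaseMean is a signal, a mean over libraries. The deposited fold changes and standard errors are log2 values, the deposited Wald statistic is a score, and the deposited p-value is unadjusted. In the authors' deposited table the members' log2 fold changes ran from -0.41 to 0.51.

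Every deposited CPM was a whole multiple of the value of 1 read (100% of values whole within 0.01 reads), so whole reads were recovered. Repeated identifiers (428 rows) were kept once, which left 27178 genes, 14589 with a read. Rn45s and Rn18s were left out of totals, and CPM taken anew. The planned test for CPM was limma 3.58.1 on log2(CPM + 1), with the trend option for the spread, and with genes of mean CPM above 1. Folds on that scale understate changes of low genes. The count test was edgeR 4.0.16 (quasi-likelihood, TMM, filterByExpr with 10 reads), with standard errors from the fold change and F statistic. DESeq2 1.42.0 was an alternative (R 4.3.3, Python 3.11.15). Location was the only term, p-values are two-sided, adjusted p are Benjamini-Hochberg over all genes tested, and the threshold was 0.05. Single values per library were compared by exact permutation.

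The tests were tried on simulated data. Among 100 genes changed 2-fold and 100 changed 8-fold, edgeR found 18% and 100% with 7 false calls among 5823 genes fitted, and limma 0% and 78% among 12794.

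Lengths, overlaps and shared 50-base stretches come from GENCODE M21, with the shortest principal coding transcript as a gene's length, and start-site windows from RefSeq (GRCm38.p6). The members, the lists and the rule for named genes were chosen with earlier results of these data known. Named were the 6 highest and 6 lowest members per kb, the 5 highest and 5 lowest fold changes, a set list of members with known roles, members at 0, and from each list the 2 genes with most reads. A few genes that the rule names are not reported here. The lists were core genes outside the rule, ribosome biogenesis, translation factors, growth control, snoRNA hosts and markers of 7 cell types.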

Additional observations from a re-analysis of the deposited data

How the results depend on the processing

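No member passed in limma or in the count test under any alternative that kept all 4 libraries. These were other pseudocounts or filters, other scaling, DESeq2, thinning to the shallowest library and the replicate block. On CPM as deposited and with TMM factors limma called 0 genes of any kind, so 0 members was fixed there. In the others limma called 2 to 50 of all genes, and the count test called 15 to 115. Each library was also left out in turn, which made 12 alternatives for each test. Where a library was left out, the lone one of its group was assumed to vary like the other group, and fold changes are given below. The members' median log2 fold change stayed below 0, from -0.24 to -0.02 in the count test and from -0.39 to -0.01 in limma. The limma value moved to -0.39 on CPM as deposited, where the median of all genes was -0.35, and ran from -0.299 to -0.0139 with a library left out. The difference in large over small subunit ratio changed sign without the 5 members with most reads (-0.079) and ran from -0.055 to 0.128 with a library left out. The difference in summed share stayed below 0, from -0.654 with ribosomal RNA kept in the total to -0.0522 without trailing replicate 2. Rps2 changed sign on CPM as deposited (-0.13 in limma) and without wavefront replicate 1. With a library left out it ran from -0.41 to 0.64 in limma and from -0.43 to 0.74 in the count test. Rpsa changed sign on CPM as deposited (-0.041 in limma). That scale keeps ribosomal RNA in the total, which lowers every gene most in wavefront replicate 2 (49.5% of reads). The cause of the changes with a library left out was not tested.

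Both groups carry replicate numbers 1 and 2, and nothing says that a number marks a shared litter or day. With the replicate block, 0 members passed in either test, and the median was -0.09 in the count test and -0.15 in limma. Deviations of same-numbered libraries correlated at 0.079 over 5971 genes, and at 0.192 over the 80 members, from 2 pairs only. The counts of members whose groups do not overlap, tried again without each library, were chosen after seeing the data. They ran from 6 to 24 above and from 27 to 58 below, of 80 members. Without wavefront replicate 1, 14 members were above and 32 below, against 37.8% and 39.4% of all tested genes. Without wavefront replicate 2, 11 were above and 48 below, against 31.3% and 40.4%. The shares of all genes without each trailing replicate are given with the main counts. Reads per member were fewest in wavefront replicate 2, where the median tested member had 40.5 reads against 124 to 136.5 in the other libraries.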
